A study of Mus musculus with 24 samples.

Results

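The prostaglandin and leukotriene synthesis genes described here are 10 genes taken by symbol from a table of 35770 gene names in murine bone marrow-derived macrophages (BMDMs). They were Pla2g4a, which encodes the cytosolic phospholipase A2, Ptgs1 and Ptgs2, the cyclooxygenases COX-1 and COX-2, Ptges and Hpgds, which make prostaglandins E2 and D2, and Alox5, Alox5ap, Ltc4s, Lta4h and Alox15 of the lipoxygenase branch. RNA was measured in 24 libraries, 3 independent samples in each of 8 groups. BMDMs of C57BL/6 mice, grown in M-CSF, received control media or media conditioned (CM) for 48 h by LL2 cells (Lewis lung carcinoma of the mouse) that were WT, KEAP1 KO or NRF2 KO. The CM made up 75% of the medium, and each of the 4 media was given for 24 h with vehicle or with 100 nM CDDO-Me, a synthetic oleanane triterpenoid that activates NRF2. The groups are named by medium and treatment, from media/vehicle, WT CM/vehicle, KEAP1 KO CM/vehicle and NRF2 KO CM/vehicle to the corresponding 4 CDDO-Me groups. The KO genes were edited with CRISPR plasmids in the cancer cells, so the macrophages of every group carried the same unedited genome. It is not stated in the sources used here whether each KO line was 1 clone, or whether the 3 samples of a group came from separate mice, and the p-values then measure only the spread between these samples.

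Eicosanoids are lipid mediators made from arachidonic acid, which phospholipase A2 releases from membranes. Cyclooxygenases turn it into prostaglandin H2, from which separate synthases make prostaglandins E2, D2 and I2 and thromboxane A2. In the other branch, 5-lipoxygenase and its activating protein FLAP make leukotriene A4, which is converted to leukotriene B4 by a hydrolase or to leukotriene C4 by a synthase. COX-1 is widely known as the constitutive enzyme of resting macrophages and COX-2 as the one induced by inflammatory stimuli.

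Levels are given in TPM, which are corrected for transcript length, as mean ± SD with n = 3 unless single libraries are listed in the order of replicates 1, 2 and 3. Differences are log2 fold changes on the log2(scaled TPM + 1) scale with their standard errors (SE), which understate the change of genes with low TPM. Tests were made with limma for the 13661 genes that exceeded 1 TPM in 3 or more libraries, and an adjusted p is corrected over all of them after Benjamini and Hochberg. Of the 10 members, 9 passed this filter, and Alox15 did not. The number of reads behind a value is unknown, because TPM keep no depth. Replicate 3 of NRF2 KO CM/vehicle and replicate 3 of NRF2 KO CM/CDDO-Me stood apart, with 15702 and 16299 genes above 0 TPM against 17817 to 18993 in the other libraries. The 7 macrophage markers summed to between 14888 and 38321 TPM per library. With WT or KEAP1 KO CM the sum was 14888 to 20375 TPM over both treatments. With media or NRF2 KO CM it was 21571 to 38321 TPM, which did not overlap. The part of this difference in the values of the members was not tested. Fibroblast markers, 6 genes such as Col1a1, summed to between 157 and 1985 TPM, so the cultures were not free of such transcripts. The summed level of 7 NRF2 target genes, such as Nqo1, was 569 to 784 TPM in the 12 vehicle libraries and 1825 to 5149 TPM in the 12 CDDO-Me libraries, with no overlap. Under CDDO-Me the sum differed between media, with 1825 to 1968 TPM in WT CM and 2290 to 3139 in KEAP1 KO CM. It was 3362 to 4616 TPM in media and 3625 to 5149 in NRF2 KO CM. How this bears on the members was not tested.

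Pla2g4a and Ptgs2, which act one after the other in the pathway, lie next to each other on mouse chromosome 1. In the GENCODE annotation of GRCm39, Pla2g4a is at chr1:149705369-149837053 on the minus strand and Ptgs2 at chr1:149975194-149983978 on the plus strand. They point away from each other, their starts are 138141 bases apart, and of the 2 genes annotated between them 0 are protein-coding. Ptgs1 lies on another chromosome, at chr2:36120438-36142287 on the plus strand. The 250 bases before the RefSeq starts of these 3 genes (build GRCm38.p6) are shown because the cyclooxygenase genes moved in opposite directions and the neighbouring pair moved together in the results that follow. Capitals mark a match to the C/EBP motif TTGCNNAA, a motif chosen after the sequences had been seen.
Ptgs1, chr2:36230176-36230425, plus strand: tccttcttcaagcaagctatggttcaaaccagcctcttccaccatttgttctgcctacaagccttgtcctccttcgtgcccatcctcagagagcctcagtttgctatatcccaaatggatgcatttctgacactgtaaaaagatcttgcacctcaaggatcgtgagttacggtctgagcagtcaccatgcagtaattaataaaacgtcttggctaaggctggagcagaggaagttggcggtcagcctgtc
Ptgs2, chr1:150099781-150100030, plus strand: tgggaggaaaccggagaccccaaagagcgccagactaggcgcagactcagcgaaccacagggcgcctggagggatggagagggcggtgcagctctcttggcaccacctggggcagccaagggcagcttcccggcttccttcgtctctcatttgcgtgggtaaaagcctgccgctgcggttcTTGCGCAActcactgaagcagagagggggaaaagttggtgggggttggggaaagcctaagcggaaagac
Pla2g4a, chr1:149961291-149961540, minus strand: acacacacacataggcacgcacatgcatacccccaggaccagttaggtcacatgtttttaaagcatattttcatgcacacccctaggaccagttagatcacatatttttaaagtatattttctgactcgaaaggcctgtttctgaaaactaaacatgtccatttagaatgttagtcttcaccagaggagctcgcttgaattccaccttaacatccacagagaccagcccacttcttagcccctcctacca
The Ptgs2 window contained TTGCGCAA, with its first base 69 bases before the start, and the Ptgs1 and Pla2g4a windows held no match. Of 32851 RefSeq windows of 300 bases, from 250 bases before to 50 bases after a start, 10.8% held TTGCNNAA on either strand. GC content was 61.6% in the Ptgs2 window against 48% for Ptgs1 and 43.2% for the Pla2g4a window shown, with a median of 52.4% over all windows. Pla2g4a has a second RefSeq window, chr1:149922440-149922689, which is not shown. It also held no match, and its GC content was 39.6%. A further 3 motifs were searched on both strands, the antioxidant response element core TGACNNNGC (in 12.4% of all windows), the gamma-activated site TTCNNNGAA (8.3%) and the STAT6 site, which has 1 base more between the same ends (6.95%). Windows were at hand for 8 of the 10 members, 9 windows in all, and the single match of these 3 motifs was TTCAAAAGAA in Ptges, 197 bases before its start. Hpgds held a second TTGCNNAA match. A match describes the letters of the window, and factor binding was not measured.

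Ptgs1 was the cyclooxygenase gene of vehicle-treated BMDMs, and CM from WT or KEAP1 KO cells raised it more than 5-fold. CDDO-Me lowered it in all 4 media, most in the same 2 CM groups in which it had been highest. Ptgs1 was at 18.8, 13.3 and 27.4 TPM in media/vehicle, 110.7, 81.2 and 135.2 in WT CM/vehicle, 106.9, 93.2 and 114.6 in KEAP1 KO CM/vehicle, and 27.6, 24.0 and 20.4 in NRF2 KO CM/vehicle. All 6 libraries with WT or KEAP1 KO CM were above the other 6 vehicle libraries. Against media/vehicle the log2 fold change was 2.50 (SE 0.29, adjusted p = 8.9e-06) with WT CM and 2.40 (SE 0.29, adjusted p = 1.4e-05) with KEAP1 KO CM. With NRF2 KO CM it was 0.31 (adjusted p = 0.58), with a 95% interval from -0.31 to 0.92. WT CM also differed from NRF2 KO CM directly, by 2.19 (SE 0.29, adjusted p = 4.8e-05).

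With CDDO-Me, Ptgs1 was at 3.64, 3.11 and 6.83 TPM in media, 2.12, 1.301 and 2.81 in WT CM, 1.37, 1.60 and 2.91 in KEAP1 KO CM, and 5.14, 4.36 and 3.85 in NRF2 KO CM. Each of the 12 CDDO-Me libraries was below each of the 12 vehicle libraries. The log2 fold change was -1.89 in media (SE 0.29, adjusted p = 0.00030), -5.08 in WT CM (adjusted p = 6.0e-11), -5.06 in KEAP1 KO CM (adjusted p = 6.5e-11) and -2.16 in NRF2 KO CM (adjusted p = 5.0e-05). The fall in the 2 CM groups was thus larger than in media, by -3.19 (SE 0.42, adjusted p = 1.2e-05) for WT CM and -3.17 (adjusted p = 1.5e-05) for KEAP1 KO CM. The order of the groups was therefore inverted by the drug, since WT and KEAP1 KO CM gave the highest group means with vehicle, 109 ± 27.1 and 105 ± 10.8, and the lowest with CDDO-Me, 2.08 ± 0.755 and 1.96 ± 0.832. The fibroblast markers summed to 514 to 1408 TPM in the 6 WT and KEAP1 KO CM vehicle libraries. In the corresponding CDDO-Me libraries they summed to 157 to 767 TPM, which overlaps that range. In media they were at 720 to 1296 TPM with vehicle and 520 to 1557 with CDDO-Me. In NRF2 KO CM they were at 519 to 1985 TPM with vehicle and 237 to 1292 with CDDO-Me. Their part in the Ptgs1 values was not tested, and fewer cells of a type and less RNA per cell cannot be told apart in bulk samples.

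Ptgs2 moved the opposite way. It was near the lower limit of the values in every vehicle group and was raised by CDDO-Me in all 4 media, and far more in WT and KEAP1 KO CM than in the other 2. With vehicle it was at 1.01, 1.14 and 1.88 TPM in media, 0.274, 0.256 and 0.732 in WT CM, 1.27, 0.682 and 2.52 in KEAP1 KO CM, and 1.079, 0.874 and 2.08 in NRF2 KO CM. With CDDO-Me it was at 4.87, 4.06 and 8.58 TPM in media, 39.7, 46.4 and 57.9 in WT CM, 79.9, 46.8 and 59.98 in KEAP1 KO CM, and 5.00, 3.84 and 9.08 in NRF2 KO CM. No vehicle library reached the lowest CDDO-Me library, and the 6 CDDO-Me libraries with WT or KEAP1 KO CM did not overlap the 6 with media or NRF2 KO CM. Log2 fold changes were 5.23 in WT CM (SE 0.34, adjusted p = 3.3e-10), 4.83 in KEAP1 KO CM (adjusted p = 1.1e-09), 1.51 in media (adjusted p = 0.0093) and 1.54 in NRF2 KO CM (adjusted p = 0.0054). The rise exceeded that in media by 3.73 (SE 0.48, adjusted p = 1.1e-05) in WT CM and by 3.33 (adjusted p = 5.1e-05) in KEAP1 KO CM. Its difference from the rise in NRF2 KO CM was not tested. The 4 dendritic cell markers summed to 3.61 to 5.21 TPM in WT CM/CDDO-Me and 2.59 to 3.1 TPM in KEAP1 KO CM/CDDO-Me, against 0.679 to 1.63 TPM in all other libraries. The difference lay in Xcr1, while Flt3 did not exceed 0.239 TPM and Ccr7 0.498 TPM in any library, and the part of these transcripts in the Ptgs2 values was not tested.

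Between the media without drug, Ptgs2 was lowest with WT CM, where its 3 libraries lay below those of media/vehicle. That log2 fold change was -0.68 (SE 0.34, adjusted p = 0.31), and with the replicate number as a block it was called at an adjusted p = 0.025. In media alone the rise with CDDO-Me was no longer called without replicate 1 of media/vehicle (1.41, adjusted p = 0.050) or without replicate 3 of media/CDDO-Me (1.20, adjusted p = 0.069). Exons of Ptgs2 share 476 bases with the antisense gene Ptgs2os, and whether reads were assigned by strand is not given in the sources used here.

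**Figure D1:**
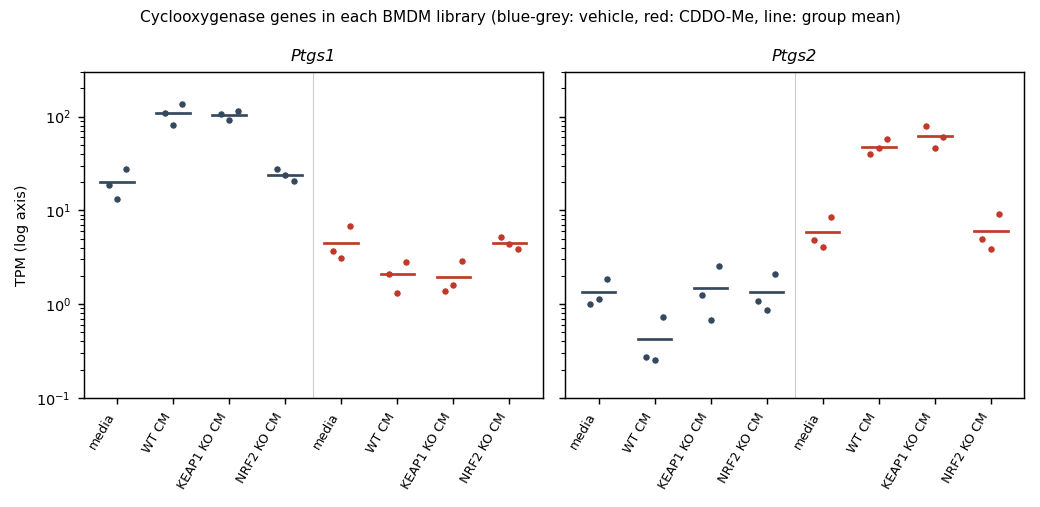
Ptgs1 (left) and Ptgs2 (right) in each library in TPM on a log axis, by medium, with vehicle in blue-grey, CDDO-Me in red and a line at each group mean (n = 3). Ptgs1 is highest in WT and KEAP1 KO CM with vehicle (means 109 and 105), while Ptgs2 is highest in the same CM with CDDO-Me (means 48 and 62.2).

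The deposited values were taken as TPM, which are given per transcript length. On that reading the levels of both genes can be set against each other. The share of Ptgs2 in the sum of both was 6.47% ± 1.38 in media/vehicle, 0.367% ± 0.153 in WT CM/vehicle, 1.35% ± 0.729 in KEAP1 KO CM/vehicle and 5.51% ± 3.25 in NRF2 KO CM/vehicle. With CDDO-Me it was 56.5% ± 0.764 in media and 55.5% ± 12.9 in NRF2 KO CM, where the 2 genes were at about the same low level. Under the drug it reached 95.9% ± 1.24 with WT CM and 96.8% ± 1.47 with KEAP1 KO CM, so nearly all cyclooxygenase transcripts were Ptgs2. The sum of both genes was 109 ± 27.3 TPM in WT CM/vehicle and 50.1 ± 9.65 TPM in WT CM/CDDO-Me, and 21.2 ± 7.55 TPM in media/vehicle and 10.4 ± 4.42 TPM in media/CDDO-Me. In NRF2 KO CM/CDDO-Me, replicate 3 was at 70.3%, and replicates 1 and 2 were at 49.3% and 46.8%. Levels of transcripts are described here, and enzyme or prostaglandin amounts were not measured.

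**Figure D2:**
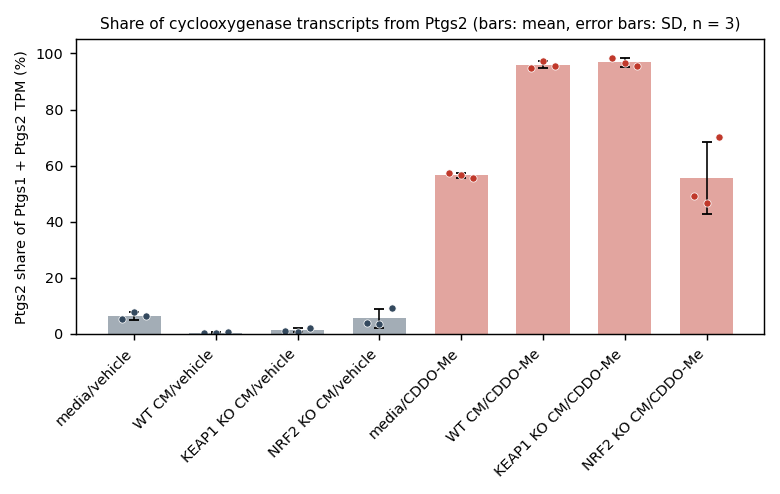
Share of Ptgs2 in the summed TPM of Ptgs1 and Ptgs2 (%) in the 8 groups, with bars for the mean, error bars for the SD and points for the 3 libraries. The share stays under 10% in all vehicle libraries and lies between 94.9% and 98.3% in WT and KEAP1 KO CM with CDDO-Me.

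Pla2g4a, whose product supplies the arachidonic acid, rose with CDDO-Me in all 4 media, and most in the 2 CM groups in which Ptgs2 rose most. It was at 13.3, 15.9 and 14.3 TPM in media/vehicle, 19.5, 22.0 and 15.8 in WT CM/vehicle, 24.1, 29.4 and 17.8 in KEAP1 KO CM/vehicle, and 20.3, 19.8 and 19.6 in NRF2 KO CM/vehicle. With CDDO-Me it was at 25.9, 26.9 and 24.5 TPM in media, 79.1, 74.5 and 71.8 in WT CM, 84.1, 75.8 and 75.4 in KEAP1 KO CM, and 35.3, 29.1 and 30.3 in NRF2 KO CM. The 6 highest libraries, all above 71 TPM, were those with CDDO-Me in WT or KEAP1 KO CM, and no other library exceeded 36 TPM. The log2 fold change with CDDO-Me was 2.05 in WT CM (SE 0.13, adjusted p = 3.3e-10), 1.87 in KEAP1 KO CM (adjusted p = 1.4e-09), 0.81 in media (adjusted p = 0.00059) and 0.66 in NRF2 KO CM (adjusted p = 0.0025). It exceeded that in media by 1.24 (SE 0.19, adjusted p = 7.8e-05) in WT CM and by 1.06 (adjusted p = 0.00045) in KEAP1 KO CM.

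Of the 3 CM, KEAP1 KO CM alone passed the threshold for Pla2g4a without drug, but it was not shown to differ from the other CM. Against media/vehicle the log2 fold change was 0.65 (SE 0.13, adjusted p = 0.0033) with KEAP1 KO CM, 0.44 (adjusted p = 0.053) with WT CM and 0.43 (adjusted p = 0.41) with NRF2 KO CM. For WT and NRF2 KO CM the unadjusted p in limma was also close, at 0.0039 and 0.0043. Compared directly, KEAP1 KO CM was higher than WT CM by 0.21 (interval -0.07 to 0.49). It was higher than NRF2 KO CM by 0.22 (interval -0.06 to 0.50, adjusted p = 0.32), and neither difference was called. The value for WT CM against media/vehicle was called in 6 of 15 alternatives. These included the replicate block (adjusted p = 0.034) and the fit without replicate 3 of WT CM/vehicle (0.54, adjusted p = 0.031). It was also called with a filter of TPM above 5 (adjusted p = 0.046) and with a pseudocount of 0.1 (adjusted p = 0.049). The others were only the groups compared (adjusted p = 0.049) and the fit without the 2 libraries with fewest genes (adjusted p = 0.025).

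The terminal prostaglandin synthases tested were Ptges and Hpgds. Ptges, the inducible prostaglandin E synthase, ranged from 1.81 to 14.96 TPM, with its highest group mean, 13.3 ± 1.87, in KEAP1 KO CM/CDDO-Me and its lowest, 4.96 ± 3.13, in NRF2 KO CM/vehicle. With CDDO-Me it was 0.83 higher on the log2 scale in KEAP1 KO CM (SE 0.27, adjusted p = 0.026), where vehicle libraries were at 8.80, 9.38 and 5.90 TPM and CDDO-Me libraries at 14.96, 11.3 and 13.7. In NRF2 KO CM it was 0.90 higher (adjusted p = 0.041), from 5.01, 8.07 and 1.81 TPM to 8.10, 9.49 and 8.83. The differences in media (0.61, adjusted p = 0.26) and WT CM (0.37, adjusted p = 0.38) did not pass.

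Both Ptges calls were near the threshold and rested on single libraries. They were also lost without scaling between libraries (adjusted p = 0.075 in KEAP1 KO CM and 0.059 in NRF2 KO CM) and without the filter on low values (adjusted p = 0.051 and 0.078). In KEAP1 KO CM the call was lost without replicate 3 of the vehicle group (0.67, adjusted p = 0.12) and without replicate 1 (0.75, adjusted p = 0.093) or 3 (0.77, adjusted p = 0.081) of the CDDO-Me group. In NRF2 KO CM it was lost without replicate 3 of the vehicle group (0.47, adjusted p = 0.17), without both libraries with fewest genes (0.43, adjusted p = 0.33), and without replicate 1 of the vehicle group (0.98, adjusted p = 0.053) or replicates 1, 2 or 3 of the CDDO-Me group (0.96, 0.89 and 0.85, adjusted p = 0.070, 0.098 and 0.10).

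Hpgds, the hematopoietic prostaglandin D synthase, was lower with WT and KEAP1 KO CM, and a fall with CDDO-Me was called in the other 2 media. It was at 174.9, 155.4 and 187.7 TPM in media/vehicle, 89.9, 80.8 and 82.4 in WT CM/vehicle, 94.6, 78.8 and 80.2 in KEAP1 KO CM/vehicle, and 159.9, 141.0 and 267.3 in NRF2 KO CM/vehicle. The 6 libraries with WT or KEAP1 KO CM were below the 6 others. The log2 fold change against media/vehicle was -0.95 with WT CM (SE 0.22, adjusted p = 0.0090), -1.02 with KEAP1 KO CM (adjusted p = 0.0047) and 0.08 with NRF2 KO CM (adjusted p = 0.87).

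With CDDO-Me, Hpgds was at 96.9, 86.5 and 92.9 TPM in media and 76.6, 80.5 and 101.6 in NRF2 KO CM, below every vehicle library of these media. It was at 64.99, 76.8 and 85.1 TPM in WT CM and 51.3, 59.1 and 75.7 in KEAP1 KO CM. These differences were -0.88 in media (SE 0.22, adjusted p = 0.018), -1.05 in NRF2 KO CM (adjusted p = 0.0032), -0.04 in WT CM (adjusted p = 0.93) and -0.29 in KEAP1 KO CM (adjusted p = 0.38). The difference from the effect in media was 0.84 (SE 0.31, adjusted p = 0.079) for WT CM and 0.59 (adjusted p = 0.25) for KEAP1 KO CM. Neither passed the threshold, so the effect was not shown to differ between these media. Without the 2 libraries with fewest genes both were called (adjusted p = 0.0038 and 0.033). With only the groups compared, that for WT CM was called (adjusted p = 0.0019). In media the call was lost without replicate 1 (-0.87, adjusted p = 0.065) or 3 (-0.81, adjusted p = 0.079) of the vehicle group or replicate 2 of the CDDO-Me group (-0.81, adjusted p = 0.082). Hpgds is also a gene of mast cells, and the 8 mast cell and basophil markers summed to 7.05 to 9.93 TPM in media/vehicle, 2.11 to 3.92 in WT CM/vehicle, 4.1 to 5.93 in KEAP1 KO CM/vehicle and 10.0 to 23.3 in NRF2 KO CM/vehicle. With CDDO-Me the sum was 2.7 to 3.81 in media, 0.723 to 0.754 in WT CM, 1.96 to 4.94 in KEAP1 KO CM and 2.13 to 6.11 in NRF2 KO CM. In WT CM the sum was lower with CDDO-Me than with vehicle, and the Hpgds libraries of these groups overlapped. Between the vehicle groups, the sum and Hpgds were both lower with WT and KEAP1 KO CM than with media or NRF2 KO CM. Most of this sum in the vehicle groups was Kit and Mcpt8, while Tpsb2 was at 0 in all libraries and Fcer1a, Ms4a2 and Mcpt4 did not exceed 0.133 TPM. In media and KEAP1 KO CM with vehicle the means were 4.53 and 1.01 TPM for Kit and 3.42 and 3.3 for Mcpt8. They were 0.379 and 0.471 for Cpa3 and 0.283 and 0.333 for Gata2. Their part in the Hpgds values was not tested.

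In the leukotriene branch, Alox5ap, which encodes FLAP, had the highest level of all members and rose with CDDO-Me in every medium. Its 12 vehicle libraries lay between 371.3 and 489.2 TPM and its 12 CDDO-Me libraries between 1062 and 1687 TPM. Unlike the cyclooxygenase genes it differed little between media, with group means of 413 ± 40.2 to 439 ± 51 TPM for vehicle and 1147 ± 54.4 to 1436 ± 220 TPM for CDDO-Me. The log2 fold change with CDDO-Me was 1.47 in media (SE 0.14, adjusted p = 1.4e-06), 1.64 in WT CM (adjusted p = 2.8e-08), 1.71 in KEAP1 KO CM (adjusted p = 1.6e-08) and 1.73 in NRF2 KO CM (adjusted p = 1.3e-07). The difference of this effect from that in media was 0.17 for WT CM (95% interval -0.25 to 0.60, adjusted p = 0.71), 0.24 for KEAP1 KO CM (adjusted p = 0.54) and 0.26 for NRF2 KO CM (adjusted p = 1.0). The 8 neutrophil markers, a cell type that also uses FLAP, summed to 10.9 to 34.2 TPM with vehicle and 31.0 to 72.8 TPM with CDDO-Me, mainly through S100a8. Retnlg stayed at or under 0.0638 TPM and Ly6g at or under 0.989 TPM in every library, and the part of these transcripts in the Alox5ap values was not tested.

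Alox5, the 5-lipoxygenase itself, was near the detection filter, from 0.586 to 6.26 TPM. It was highest with NRF2 KO CM, at 1.87, 2.31 and 3.83 TPM with vehicle and 5.15, 6.26 and 4.48 with CDDO-Me, and these 2 sets did not overlap. CDDO-Me changed it by 0.82 on the log2 scale in NRF2 KO CM (SE 0.23, adjusted p = 0.026) and 0.71 in media (adjusted p = 0.079), from 1.36, 1.11 and 1.13 TPM to 2.16, 2.46 and 3.16. The value in media was called with the replicate block (adjusted p = 0.043). In WT CM (0.31, adjusted p = 0.37) and KEAP1 KO CM (0.04, adjusted p = 0.92) the groups overlapped. Between vehicle groups, WT CM was lower than NRF2 KO CM by -0.85 (adjusted p = 0.021). The call in NRF2 KO CM was lost without replicate 1 (0.66, adjusted p = 0.11) or 2 (0.73, adjusted p = 0.080) of its vehicle group or replicate 1 (0.84, adjusted p = 0.061) or 2 (0.75, adjusted p = 0.094) of its CDDO-Me group, and with a pseudocount of 0.1 (1.04, adjusted p = 0.076). The difference between WT and NRF2 KO CM was lost without replicate 2 (-0.85, adjusted p = 0.057) or 3 (-0.72, adjusted p = 0.10) of WT CM/vehicle or replicate 3 of NRF2 KO CM/vehicle (-0.60, adjusted p = 0.11).

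Ltc4s, the leukotriene C4 synthase, was, like Ptgs1, highest with WT and KEAP1 KO CM under vehicle and lowest in the same CM with CDDO-Me. It was at 18.1, 15.2 and 27.6 TPM in media/vehicle, 41.8, 32.2 and 41.2 in WT CM/vehicle, 39.5, 40.8 and 53.7 in KEAP1 KO CM/vehicle, and 20.6, 24.7 and 10.2 in NRF2 KO CM/vehicle. With CDDO-Me it was at 18.2, 17.4 and 15.1 TPM in media, 4.90, 6.95 and 4.69 in WT CM, 5.53, 5.29 and 5.80 in KEAP1 KO CM, and 15.8, 18.4 and 8.07 in NRF2 KO CM. The 6 highest libraries were those of WT and KEAP1 KO CM with vehicle and the 6 lowest those of the same CM with CDDO-Me. CDDO-Me changed it by -2.50 in WT CM (SE 0.27, adjusted p = 3.7e-07) and -2.64 in KEAP1 KO CM (adjusted p = 1.8e-07) on the log2 scale, against -0.19 in media (adjusted p = 0.90) and -0.33 in NRF2 KO CM (adjusted p = 0.56). The difference from media was -2.31 (SE 0.38, adjusted p = 0.00017) for WT CM and -2.45 (adjusted p = 9.2e-05) for KEAP1 KO CM.

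Without drug, Ltc4s was higher than in media/vehicle by 0.99 (SE 0.27, adjusted p = 0.025) with WT CM and by 1.13 (adjusted p = 0.0095) with KEAP1 KO CM. The first of these calls was lost without scaling (0.92, adjusted p = 0.059) and without replicate 1 (0.94, adjusted p = 0.10) or 2 (0.81, adjusted p = 0.14) of media/vehicle or replicate 1 (0.93, adjusted p = 0.097) or 3 (0.92, adjusted p = 0.096) of WT CM/vehicle. The second was lost without replicate 2 of media/vehicle (0.95, adjusted p = 0.067) or replicate 3 of KEAP1 KO CM/vehicle (0.97, adjusted p = 0.055). Of the 1037 exon bases of Ltc4s, 268 are shared with Gm26542 on the opposite strand.

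Lta4h, the leukotriene A4 hydrolase, stayed between 58.2 and 85.1 TPM in all 24 libraries. Its group means ran from 61.3 ± 4.05 in KEAP1 KO CM/CDDO-Me to 81.3 ± 4.14 in media/vehicle, and it passed the threshold in 0 of the 14 comparisons with limma. In WT CM its CDDO-Me libraries, at 63.3, 62.0 and 62.5 TPM, were all below the vehicle libraries at 77.0, 76.7 and 84.5, and the change was -0.22 on the log2 scale (SE 0.09, adjusted p = 0.067). It was called there without scaling between libraries (-0.34, adjusted p = 0.011) and without the 2 libraries with fewest genes (adjusted p = 0.013). In KEAP1 KO CM its CDDO-Me libraries, at 58.2, 65.9 and 59.7 TPM, were also below the vehicle libraries at 76.7, 81.2 and 74.0, by -0.17 (adjusted p = 0.16). It was called there without scaling (-0.33, adjusted p = 0.011) and without the same 2 libraries (adjusted p = 0.045). Alox15, the 12/15-lipoxygenase of mouse peritoneal macrophages, did not exceed 0.423 TPM in any library and was listed at 0 in all 3 libraries of media/vehicle and of WT CM/CDDO-Me.

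**Figure D3:**
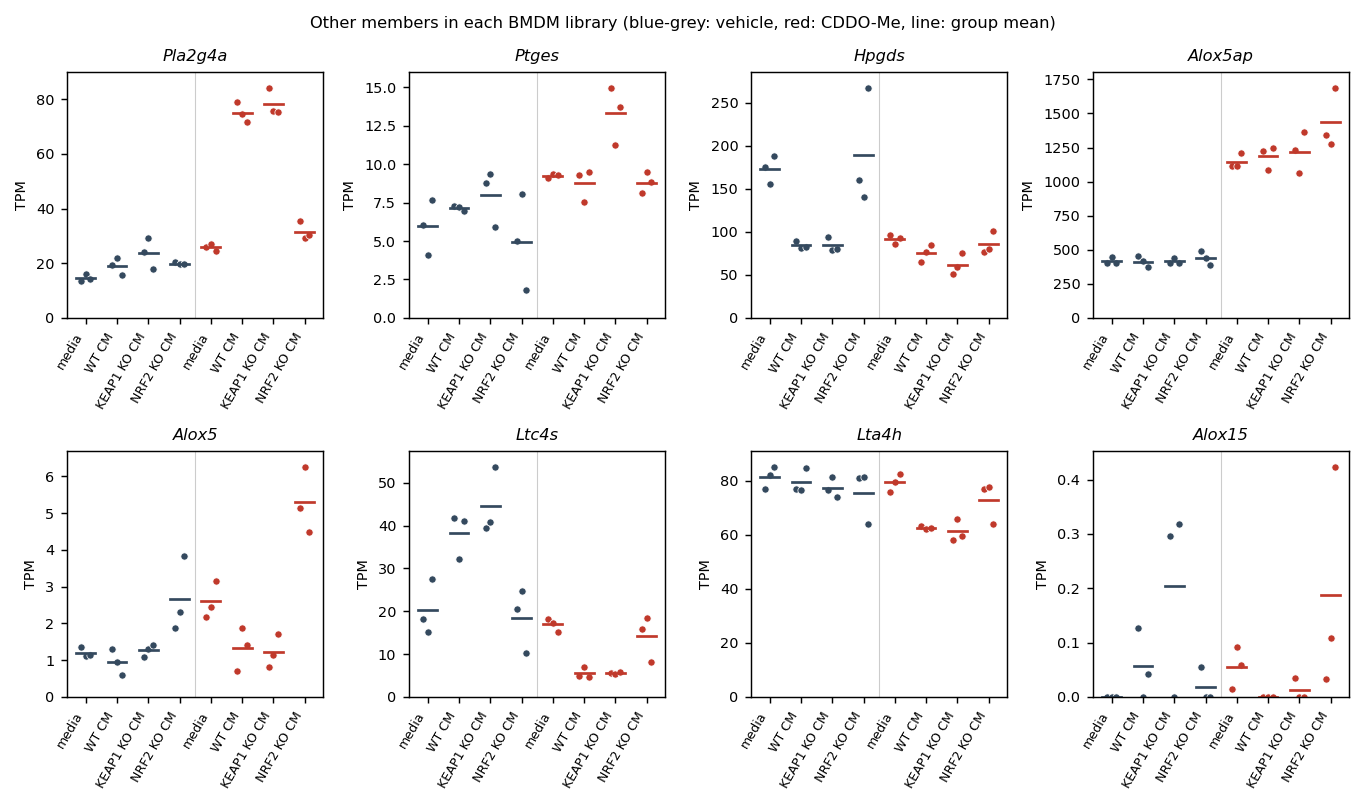
The other 8 members in each library in TPM, with a linear axis from 0 for each gene, vehicle in blue-grey, CDDO-Me in red and a line at each group mean (n = 3). Alox5ap lies between 371.3 and 489.2 TPM with vehicle and between 1062 and 1687 TPM with CDDO-Me in every medium, whereas Ltc4s separates WT and KEAP1 KO CM from media and NRF2 KO CM with either treatment and Pla2g4a with CDDO-Me but not with vehicle.

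Counted over the vehicle groups, members were called where WT or KEAP1 KO CM was set against control media or NRF2 KO CM. Of the 9 members tested, 3 were called between WT CM/vehicle and media/vehicle, Ptgs1 and Ltc4s higher and Hpgds lower, where 7.25% of all genes tested were called. With the replicate block, 5 members and 1748 genes were called in this comparison against 3 and 991 without it. Of the genes called, 61.7% were higher with scaling between libraries and 48.2% without it. For KEAP1 KO CM/vehicle against media/vehicle it was 4, the same 3 and Pla2g4a, with a background of 8.03%. These 2 comparisons share the media/vehicle libraries. Between NRF2 KO CM/vehicle and media/vehicle 0 of 9 members were called by limma, with a background of 0.00732%, and 2 members (Pla2g4a and Alox5) and 1646 genes had an unadjusted p under 0.05. Between KEAP1 KO CM/vehicle and WT CM/vehicle 0 members and 0.00% of genes were called, with 1 member (Ptgs2, log2 fold change 0.72, 95% interval 0.01 to 1.44) and 349 genes at an unadjusted p under 0.05. The interval for Ptgs1 in this comparison was -0.72 to 0.51 and that for Ltc4s -0.42 to 0.69. Against NRF2 KO CM/vehicle, WT CM/vehicle differed in 4 members, Ptgs1 and Ltc4s higher and Hpgds and Alox5 lower, with a background of 10.8% (65.7% of calls higher with scaling and 44.2% without), and KEAP1 KO CM/vehicle in 3, the same without Alox5, with a background of 9.01%. When only the groups compared entered the fit, Ptgs1 alone was called in these last comparisons, and Hpgds (adjusted p = 0.19 and 0.21), Ltc4s (0.16 and 0.15) and, for WT CM, Alox5 (0.27) were not.

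CDDO-Me moved more of the members, and the direction of each called member was the same in every medium in which it was called. In media 5 of 9 were called, Ptgs2, Pla2g4a and Alox5ap higher and Ptgs1 and Hpgds lower, with a background of 6.00%. In WT CM 5 were called, the same 3 higher and Ptgs1 and Ltc4s lower, with a background of 27.9%, and in KEAP1 KO CM 6, with Ptges in addition, against 28.9%. In NRF2 KO CM 7 were called, Ptgs2, Ptges, Pla2g4a, Alox5 and Alox5ap higher and Ptgs1 and Hpgds lower, against 9.64%. When only the 2 NRF2 KO CM groups entered the fit, Ptgs1 and Alox5ap alone were called, and Ptgs2 (adjusted p = 0.17), Pla2g4a (0.16), Hpgds (0.27), Alox5 (0.31) and Ptges (0.54) were not. The median log2 fold change of the 9 members was 0.61, 0.31, 0.04 and 0.66 in the 4 media in this order, beside -0.00, -0.02, -0.03 and 0.01 over all genes tested. In media, 1465 genes were called with the replicate block against 820 without it. Without scaling between libraries, the share of called genes that were higher was 39.1% against 50.9% in WT CM and 34.6% against 49.5% in KEAP1 KO CM, and the median over all genes without scaling was -0.12 and -0.17 against -0.02 and -0.03.

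The effect of CDDO-Me differed from that in media for 4 of 9 members in WT CM (background 15.3%) and 4 of 9 in KEAP1 KO CM (background 14.8%, with 54.6% of calls higher with scaling and 40.5% without). In both cases these were Ptgs2 and Pla2g4a, with a larger rise, and Ptgs1 and Ltc4s, with a larger fall. The effects in WT and KEAP1 KO CM were not tested against that in NRF2 KO CM. For NRF2 KO CM against media, and for KEAP1 KO CM against WT CM, 0 members were called by limma with a background of 0.00% in each, and 0 members had an unadjusted p under 0.05. Over all genes, 359 and 226 had an unadjusted p under 0.05 in these 2 comparisons. The interval of the difference between KEAP1 KO CM and WT CM was -0.85 to 0.89 for Ptgs1 and -1.41 to 0.61 for Ptgs2, so differences of that size were not detectable here.

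**Figure D4:**
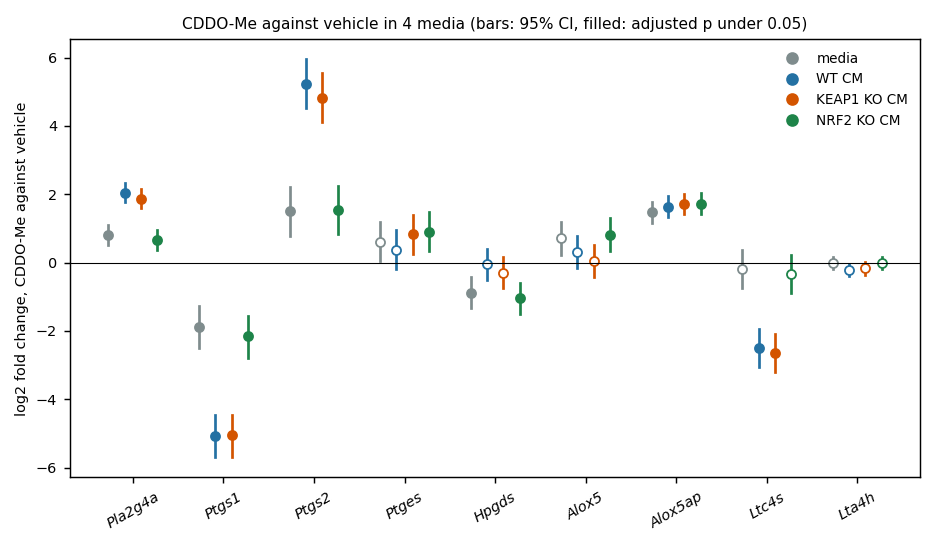
Log2 fold change of 9 members with CDDO-Me against vehicle in media (grey), WT CM (blue), KEAP1 KO CM (orange) and NRF2 KO CM (green), with 95% confidence intervals and filled points for an adjusted p under 0.05. Ptgs1, Ptgs2, Pla2g4a and Ltc4s lie further from 0 in WT and KEAP1 KO CM, and Alox5ap lies between 1.47 and 1.73 in all 4 media.

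The surrounding pathway was read from a list of 48 further genes of arachidonate supply, other prostanoid synthases, other lipoxygenases and leukotriene conversion, breakdown and transport, and receptors. Of these, 47 were in the table and 34 were tested. With WT CM against media/vehicle 7 of 34 were called, 6 higher and 1 lower, and with KEAP1 KO CM 5 of 34, 3 higher and 2 lower, beside 7.25% and 8.03% of all genes tested. NRF2 KO CM against media/vehicle gave 0 of 34 by limma, with 7 at an unadjusted p under 0.05, and KEAP1 KO CM against WT CM 0 of 34, with 2. With the replicate block, 12 of 34 were called for WT CM against media/vehicle, beside 1748 of all 13661 genes, with Mgll, Acsl4, Ptges3, Slco2a1 and Cysltr1 in addition, and 1 for KEAP1 KO CM against WT CM (Dpep2, -0.46, adjusted p = 0.046).

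Receptors, which were 9 of the 34 genes tested, were 3 of the 6 genes called higher with WT CM and 2 of the 3 called higher with KEAP1 KO CM. Ltb4r1, the high-affinity leukotriene B4 receptor, was at 0.164 ± 0.0715 TPM in media/vehicle, 3.64 ± 0.248 in WT CM/vehicle, 3.1 ± 0.913 in KEAP1 KO CM/vehicle and 0.399 ± 0.295 in NRF2 KO CM/vehicle, with log2 fold changes of 2.01 (SE 0.19, adjusted p = 6.1e-07) and 1.76 (adjusted p = 3.7e-06) for the first 2 CM. Ptgir, the prostacyclin receptor, went from 3 ± 0.978 TPM to 13 ± 1.48 with WT CM (1.89, SE 0.23, adjusted p = 1.4e-05) and 11.4 ± 1.82 with KEAP1 KO CM (1.64, adjusted p = 7.1e-05). Ptger2, the EP2 receptor of prostaglandin E2, was higher with WT CM (1.09, adjusted p = 0.0073), a call lost without replicate 1 of media/vehicle (0.90, adjusted p = 0.058). The other EP receptor called, Ptger4, was lower with WT CM (-0.72, adjusted p = 0.013) and KEAP1 KO CM (-0.65, adjusted p = 0.021). The first Ptger4 call was lost without replicate 1 (-0.64, adjusted p = 0.074) or 2 (-0.68, adjusted p = 0.056) of media/vehicle or replicate 2 of WT CM/vehicle (adjusted p = 0.054). The second was lost without replicate 1 (-0.58, adjusted p = 0.11) or 2 (-0.62, adjusted p = 0.081) of media/vehicle or replicate 2 (-0.66, adjusted p = 0.064) or 3 (-0.60, adjusted p = 0.080) of KEAP1 KO CM/vehicle.

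Among the supply and synthase genes, Pla2g5, a secreted phospholipase A2, rose from 0.137 ± 0.199 TPM to 2.57 ± 1.59 with WT CM (1.59, SE 0.27, adjusted p = 0.00055) and 2.96 ± 0.594 with KEAP1 KO CM (1.77, adjusted p = 0.00016). Mgll, the monoacylglycerol lipase, was lower with KEAP1 KO CM (-1.59, SE 0.29, adjusted p = 0.0010), at 22.9 ± 2.12 TPM against 72.8 ± 19.6. With WT CM its value was -0.93 (adjusted p = 0.057, and 0.048 with the replicate block). Tbxas1, the thromboxane synthase (0.74, adjusted p = 0.015), and Pla2g12a (0.60, adjusted p = 0.021) were higher with WT CM. Between KEAP1 KO CM and WT CM directly, 0 of 34 were called by limma. Genes called with only 1 of these CM were thus not shown to differ between them. The Tbxas1 call was lost without replicate 1 (adjusted p = 0.075) or 2 (adjusted p = 0.062) of media/vehicle or replicate 3 of WT CM/vehicle (adjusted p = 0.092). The Pla2g12a call was lost without scaling (adjusted p = 0.058) and without replicate 1 (adjusted p = 0.087) or 2 (adjusted p = 0.10) of media/vehicle or replicate 1 (adjusted p = 0.084) or 3 (adjusted p = 0.073) of WT CM/vehicle.

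With CDDO-Me, 11 of 34 pathway genes were called in media, 9 higher and 2 lower, and 13 of 34 in each of WT CM (6 higher, 7 lower), KEAP1 KO CM (8 higher, 5 lower) and NRF2 KO CM (11 higher, 2 lower). Over all genes tested, 6.00% were called in media, 27.9% in WT CM, 28.9% in KEAP1 KO CM and 9.64% in NRF2 KO CM. Genes called in all 4 media were Pla2g7, Abcc1, Abcc4 and Ptger2, which rose, and Mgll and Slco2a1, which fell. Pla2g7, the platelet-activating factor acetylhydrolase, went from 146 ± 24.8 to 902 ± 100 TPM in media, 123 ± 16.7 to 1515 ± 36.7 in WT CM, 118 ± 39.5 to 1655 ± 63.1 in KEAP1 KO CM and 184 ± 29.3 to 1363 ± 371 in NRF2 KO CM. Its log2 fold change was 2.65 to 4.01 (SE 0.23, highest adjusted p = 3.8e-07). Abcc1, which exports leukotriene C4, rose from 34.6 ± 5.34 to 197 ± 9.29 TPM in media and from 30.9 ± 0.794 to 128 ± 12.5 in WT CM, with log2 fold changes of 2.13 to 2.82 over the 4 media (SE 0.18). Abcc4, a prostaglandin exporter, rose by 1.74 to 2.11 (SE 0.17). Ptger2 reached 26.9 ± 2.73 to 29.1 ± 8.06 TPM in the 4 CDDO-Me groups, with log2 fold changes of 1.12 to 2.54 (SE 0.24).

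Mgll fell by 1.72 on the log2 scale in media, 1.36 in WT CM, 1.45 in KEAP1 KO CM and 1.65 in NRF2 KO CM. Slco2a1, the prostaglandin uptake transporter, fell by 0.70 in media (adjusted p = 0.032), 1.17 in WT CM (adjusted p = 7.6e-05), 1.36 in KEAP1 KO CM (adjusted p = 1.3e-05) and 0.65 in NRF2 KO CM (adjusted p = 0.036). Its call in media was lost without replicate 1 or 3 of the vehicle group or 1 or 2 of the CDDO-Me group (adjusted p = 0.11 to 0.15). That in NRF2 KO CM was lost without replicate 1, 2 or 3 of the vehicle group or 1 or 3 of the CDDO-Me group (adjusted p = 0.053 to 0.12). Both were also lost without the filter on low values (adjusted p = 0.059 and 0.067).

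A further set of pathway genes was called in some media and not in others. The test of the difference from the effect in media called Pla2g5, Pla2g2e, Pla2g7, Tbxas1, Cbr1, Ptgr1 and Ptgir, 7 of 34 in each of WT and KEAP1 KO CM. It did not call Cysltr2 (1.16 in both CM, adjusted p = 0.11 in both), Ptgr2 (adjusted p = 0.17 and 0.077), Ltb4r1 (0.68 and 0.31), Pla2g12a (0.38 and 0.45), Mgst2 (0.21 and 0.64), Ptges3 (0.71 and 0.62), Ggt5 (0.75 and 0.86) or Ptgfr (0.91 and 0.98), so the effect on these genes was not shown to differ between media. Ptgir rose in media (2.69, SE 0.23, adjusted p = 2.7e-07) and NRF2 KO CM (2.79, adjusted p = 1.2e-07), to 24.6 ± 5.58 and 19.3 ± 2.9 TPM, and was lower in WT CM (-0.73, adjusted p = 0.020), at 6.8 ± 0.479 TPM. The call in WT CM was lost without replicate 3 of the vehicle group (-0.64, adjusted p = 0.086) or replicate 1 (-0.69, adjusted p = 0.067) or 2 (adjusted p = 0.051) of the CDDO-Me group, while the difference between WT CM and media, -3.42 (SE 0.33, adjusted p = 2.0e-07), was called in every alternative run. Ptgr1, which reduces prostaglandin metabolites and leukotriene B4, rose from 30.1 ± 0.958 to 158 ± 14.2 TPM in media (2.36, SE 0.23) and from 26.3 ± 11.1 to 149 ± 12.5 in NRF2 KO CM (2.59), with 0.88 in KEAP1 KO CM (adjusted p = 0.0054). Tbxas1 rose in WT CM (1.11, SE 0.18, adjusted p = 7.7e-05), from 197 ± 30.4 to 388 ± 21.3 TPM, and in KEAP1 KO CM (0.80, adjusted p = 0.0019), from 177 ± 12.7 to 274 ± 12.8. Cysltr2, a cysteinyl leukotriene receptor, rose by 1.31 in both (SE 0.33, adjusted p = 0.0043 and 0.0041), from 5.16 ± 0.984 to 13.2 ± 3.04 TPM and from 5.47 ± 1.73 to 13.2 ± 0.537 TPM.

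Pla2g5 and Pla2g2e, secreted phospholipases A2, fell in the same 2 CM. For Pla2g5 the log2 fold change was -1.65 in WT CM and -1.63 in KEAP1 KO CM (SE 0.27, adjusted p = 6.5e-05 and 7.0e-05), to 0.0664 ± 0.0595 and 0.244 ± 0.348 TPM. For Pla2g2e it was -2.29 and -2.57 (SE 0.40, adjusted p = 0.00017 and 4.6e-05). Ptgr2 was lower by 0.54 and 0.60 on the log2 scale (SE 0.09), Ltb4r1 was higher in KEAP1 KO CM (0.59, adjusted p = 0.026), and Pla2g12a was lower in WT CM (-0.46, adjusted p = 0.033). The Ltb4r1 call was lost without replicate 1 (adjusted p = 0.096) or 3 (adjusted p = 0.11) of the vehicle group or 2 (adjusted p = 0.13) of the CDDO-Me group. It was also lost without scaling (adjusted p = 0.097) and with a pseudocount of 0.1 (adjusted p = 0.32). That of Pla2g12a was lost without the filter on low values (adjusted p = 0.051) and without replicate 1 (adjusted p = 0.10) or 3 (adjusted p = 0.089) of the vehicle group or 1 (adjusted p = 0.12) or 2 (adjusted p = 0.086) of the CDDO-Me group.

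In media and NRF2 KO CM, Mgst2, a microsomal glutathione transferase able to make leukotriene C4, rose by 2.48 (SE 0.65, adjusted p = 0.024) and 3.08 (adjusted p = 0.0034), with wide spreads of 29.7 ± 27.9 and 39.7 ± 33.5 TPM after CDDO-Me. Ptges3 rose by 0.38 and 0.43 (SE 0.10), Cbr1 by 0.45 and 0.55 (SE 0.11), and in NRF2 KO CM Ggt5 by 2.02 (SE 0.60, adjusted p = 0.038) and Ptgfr, the prostaglandin F receptor, by 1.79 (SE 0.42, adjusted p = 0.0083). In media the Mgst2 call was lost without replicate 1 (2.02, adjusted p = 0.15) or 2 (2.53, adjusted p = 0.065) of the vehicle group or replicate 3 of the CDDO-Me group (1.74, adjusted p = 0.16), and that of Cbr1 without replicate 2 of the vehicle group or 3 of the CDDO-Me group (adjusted p = 0.074 and 0.090). That of Ptges3 in media was lost without replicate 1 or 3 of the vehicle group or 1, 2 or 3 of the CDDO-Me group (adjusted p = 0.050 to 0.12). The Ggt5 call in NRF2 KO CM was lost without replicate 3 of its vehicle group (1.21, adjusted p = 0.17). It was also lost without replicate 1 or 2 of its CDDO-Me group (adjusted p = 0.14 and 0.13). With the replicate block, Ggt5 (adjusted p = 0.0029), Ptgfr (0.0032) and Ptgr2 (0.041) were also called in media, and Acsl4 (0.022) and Dpep2 (0.0014) in NRF2 KO CM. With only the 2 NRF2 KO CM groups in the fit, Pla2g7, Ptgr1, Abcc1, Abcc4, Ptger2 and Ptgir were still called there, and Mgll, Cbr1, Mgst2, Ggt5, Slco2a1, Ptgfr and Ptges3 were not (adjusted p = 0.082 to 0.42).

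**Figure D5:**
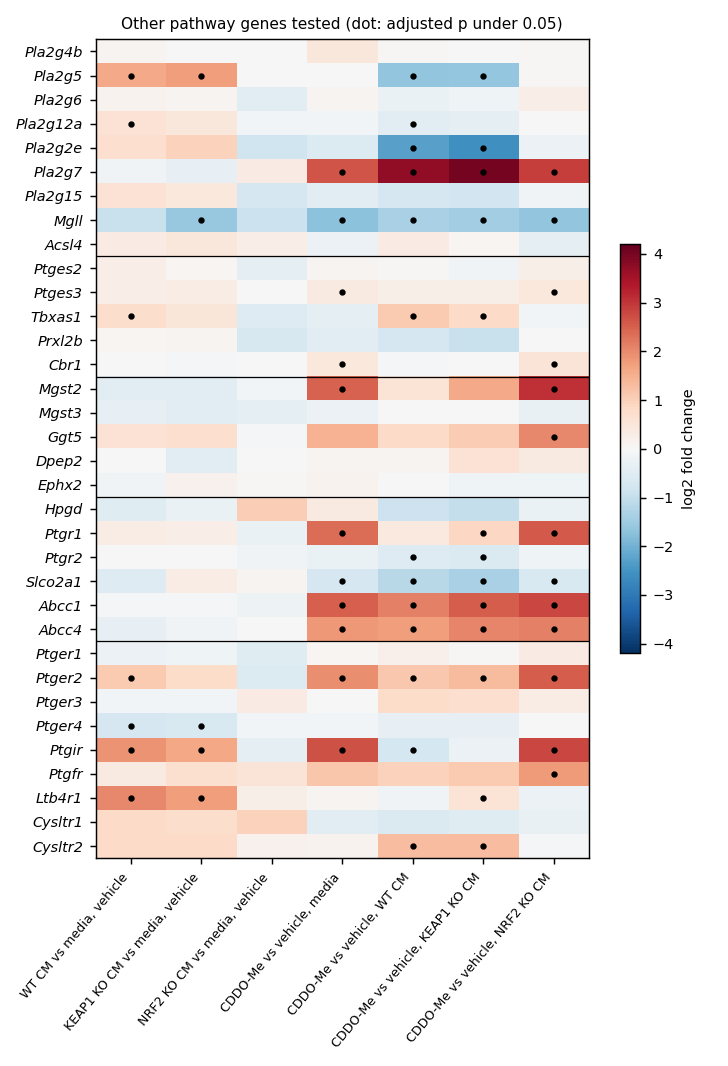
Log2 fold change of the 34 other pathway genes tested (rows, grouped by role with lines between groups) in 7 comparisons (columns), from blue for lower to red for higher, with a dot for an adjusted p under 0.05. Pla2g7, Abcc1, Abcc4 and Ptger2 are red and Mgll and Slco2a1 blue in all 4 CDDO-Me columns, and the NRF2 KO CM column for vehicle holds no dot.

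The genes with the most similar pattern over the 24 libraries were named as a description, from Pearson's r of log2 values, which share group, depth and scaling. For Ptgs1 they were Lpxn (r = 0.973) and Tmem144 (0.965), for Ptgs2 Dram1 (0.984) and Gpr18 (0.983), and for Pla2g4a Sfxn5 (0.973) and Fam131b (0.969). Those nearest to Alox5ap were G6pdx (0.979) and Prdx1 (0.975), and those nearest to Ltc4s were Itgb3 (0.973) and Baiap2 (0.968). Hpgds was closest to Cd4 (0.925) and Pcp4l1 (0.914). For the low or steady members the values were lower, with Psmd4 (0.904) and Sbno2 (0.891) for Ptges, Vat1 (0.886) and Colgalt1 (0.881) for Lta4h, and Tanc1 (0.819) and Dap (0.811) for Alox5.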

How the data were processed

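RNA of 24 BMDM libraries, 3 in each of 8 groups named from the labels, was sequenced after poly-A selection as paired reads. The authors quantified it with Kallisto on the GRCm39 transcriptome and deposited length-scaled TPM for each gene symbol, whose sums were 999365 to 999801 per library. The reads behind a value are thus unknown, genes that share exons on opposite strands can share reads, and a row without a gene name (0.0199% to 0.0635% of a library) was left out. Because of these sums per library the values were taken as TPM, and no count test was run.

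TPM were scaled by TMM (trims of 30% and 5%) and tested as log2(scaled TPM + 1) in limma 3.58.1 (R 4.3.3) with 8 group means over 24 libraries, 16 residual degrees of freedom, moderated variances with a trend, and Benjamini-Hochberg adjustment over the 13661 genes that exceeded 1 TPM in 3 or more libraries, in each of 14 comparisons. A call is an adjusted p under 0.05. The scripts were tested on simulated data. The members and gene lists were chosen with earlier results of these data known. All 10 members, the pathway genes past the threshold, and for each tested member the 2 genes with the highest Pearson's r over the libraries were named.

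The labels number the replicates of each group 1 to 3 without saying what a number shares. Deviations from group means of same-numbered libraries correlated by more than 0.1 in every pair for WT CM against media/vehicle, KEAP1 KO CM against WT CM, and CDDO-Me in media and in NRF2 KO CM, where the fit with a replicate block is given beside a changed call. Other alternatives were RLE scaling, no scaling, no filter, a filter of TPM above 5, a pseudocount of 0.1, no variance trend, only the groups compared, each library left out in turn, and both libraries with fewest genes left out. Promoter sequences were taken from RefSeq (GRCm38.p6), and gene positions from GENCODE (GRCm39). Figures were drawn with matplotlib 3.10.9.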

Additional observations from a re-analysis of the deposited data

Results flagged for a closer look

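The log2 fold change with CDDO-Me differed from that in control media for 11 genes of the pathway, each by the test of the difference itself in limma with Benjamini-Hochberg adjustment, and for each gene in both WT CM and KEAP1 KO CM. The 2 sets of differences share the 6 libraries with control media. With 3 samples a group, no search for single deviating samples was made.

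Among the synthesis genes, Ptgs1 differed by -3.19 in WT CM and -3.17 in KEAP1 KO CM, and Ptgs2 by 3.73 and 3.33. Pla2g4a differed by 1.24 and 1.06, and Ltc4s by -2.31 and -2.45. All 8 of these values were called in every alternative run.

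Of the other pathway genes, Ptgir differed by -3.42 (adjusted p = 2.0e-07) and -2.92 (adjusted p = 1.8e-06), and Ptgr1 by -1.96 (adjusted p = 0.00019) and -1.48 (adjusted p = 0.0029). Tbxas1 differed by 1.52 (adjusted p = 0.00025) and 1.21 (adjusted p = 0.0023), and Pla2g5 by -1.67 (adjusted p = 0.0037) and -1.65 (adjusted p = 0.0041), the second lost with a pseudocount of 0.1 (adjusted p = 0.052). The remaining genes were nearer to the threshold. Pla2g7 differed by 1.10 (adjusted p = 0.028) and 1.36 (adjusted p = 0.0066), and the first of these reached an adjusted p of 0.053 to 0.081 in 7 of the fits that left out 1 library, any of media/vehicle replicate 3, WT CM/vehicle replicates 1 and 2, media/CDDO-Me replicates 1 and 2, and WT CM/CDDO-Me replicates 1 and 3. It was also lost without the filter on low values (0.054). Pla2g2e differed by -1.70 (adjusted p = 0.050) and -1.98 (adjusted p = 0.022). Without 1 library it reached 0.058 to 0.14 for WT CM in 9 fits (all but WT CM/vehicle replicate 3, media/vehicle replicate 3 and WT CM/CDDO-Me replicate 3), and it was also lost with RLE scaling (0.052), without scaling (0.052), without the filter on low values (0.098) and with the replicate block (0.050). With a pseudocount of 0.1 it was lost in both CM (0.16 and 0.10). For KEAP1 KO CM it reached 0.050 to 0.068 without replicate 2 of media/vehicle, KEAP1 KO CM/vehicle or media/CDDO-Me, or replicate 3 of KEAP1 KO CM/CDDO-Me. Cbr1 differed by -0.52 (adjusted p = 0.025) and -0.48 (adjusted p = 0.040). The first was lost without media/vehicle replicate 2, media/CDDO-Me replicate 3 or WT CM/CDDO-Me replicate 3 (adjusted p = 0.052 to 0.073). The second was lost (0.057 to 0.11) in 9 fits, which left out any of media/vehicle replicates 1, 2 and 3, KEAP1 KO CM/vehicle replicates 2 and 3, media/CDDO-Me replicates 1 and 3, and KEAP1 KO CM/CDDO-Me replicates 1 and 2.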

How the results depend on the processing

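Of 2090 member values under an alternative, 2022 kept their call and direction, 44 lost a call, 24 gained one and 0 reversed, and 75 changed sign where neither value was called. Of the 45 member calls, 30 held in every alternative, as did 56 of 96 calls of other pathway genes. The causes of the changes were not tested. TPM hold no depth, so precision rests on 3 libraries a group.

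Counts of genes called moved by over 1.5 times as follows. For NRF2 KO CM against media/vehicle, 0 genes were called without scaling, 2 without the filter, 2 with a pseudocount of 0.1, 2 with the replicate block and 0 with only the groups compared, against 1. Without the filter, 1 gene was called for KEAP1 KO CM against WT CM, 1 for the effect of CDDO-Me in NRF2 KO CM minus media and 2 for that in KEAP1 KO CM minus WT CM, against 0. With the replicate block, counts were 1748 genes and 5 members for WT CM against media, 1791 for KEAP1 KO CM against media, 2 for KEAP1 KO CM against WT CM, 2568 and 2219 for WT and KEAP1 KO CM against NRF2 KO CM, and 1465 for CDDO-Me in media. Outside the 4 paired comparisons, the block also called Ptgs2 in WT CM against NRF2 KO CM (-0.67, adjusted p = 0.022), Alox5 in KEAP1 KO CM against NRF2 KO CM (-0.65, adjusted p = 0.048) and the Hpgds difference between WT CM and media (0.84, adjusted p = 0.015). Same-numbered libraries correlated by over 0.1 in 71 of 84 pairs (mean r 0.26). The mean r of -0.12 for other numbers largely follows from taking deviations from group means, so it is no separate comparison.

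With only the groups compared, counts were 2081 and 2229 for WT and KEAP1 KO CM against media, 165 genes with 1 member and 136 genes with 1 member for WT and KEAP1 KO CM against NRF2 KO CM, 1610 for CDDO-Me in media, 140 genes with 2 members in NRF2 KO CM, and 3618 and 3413 for the differences of WT and KEAP1 KO CM from media. Without the 2 libraries with fewest genes, they were 2574 and 2843 for WT and KEAP1 KO CM against media, 2020, 5827 and 6065 for CDDO-Me in media, WT CM and KEAP1 KO CM, and 3845 and 3951 for the differences from media.

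Leaving out 1 library gave 627 to 730 genes (2 to 3 members) for WT CM against media, 704 to 912 (3 to 4) for KEAP1 KO CM against media, 0 to 3 genes for NRF2 KO CM against media, 0 to 1 for KEAP1 KO CM against WT CM, 818 to 2522 (3 to 5) and 755 to 1983 (3 to 4) for WT and KEAP1 KO CM against NRF2 KO CM, 526 to 603 (3 to 5) for CDDO-Me in media, 1039 to 1476 (5 to 6) in NRF2 KO CM, and 0 to 1 for the differences of NRF2 KO CM from media and of KEAP1 KO CM from WT CM. The lowest count for CDDO-Me in media (526 genes, 3 members) came without replicate 1 of media/vehicle.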

Other observations

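The other pathway genes were also compared between WT or KEAP1 KO CM and NRF2 KO CM with vehicle, with 12 and 8 of 34 called by limma, beside 10.8% and 9.01% of all genes tested. Called higher with WT and with KEAP1 KO CM than with NRF2 KO CM were the receptor genes Ptgir (2.30 and 2.06, SE 0.23), Ltb4r1 (1.77 and 1.51, SE 0.19) and Ptger2 (1.65 and 1.34, SE 0.24), the phospholipase gene Pla2g5 (1.57 and 1.75, SE 0.27) and Tbxas1 (1.26 and 1.05, SE 0.18). The same held for Pla2g2e (1.53 and 1.79, SE 0.40) and Pla2g12a (0.71 and 0.60, SE 0.16). For WT CM the threshold was also passed by Ptges2 (0.67), Pla2g15 (1.30), Slco2a1 (-0.68) and Ptger4 (-0.62).

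Hpgd, the enzyme that inactivates prostaglandin E2, was lower with WT CM (-1.52, SE 0.38, adjusted p = 0.012) and KEAP1 KO CM (-1.30, adjusted p = 0.035) than with NRF2 KO CM, at 32.2 ± 15.1 and 38.8 ± 14.2 TPM against 96.9 ± 36.6 (n = 3). The first value was lost without replicate 3 of WT CM/vehicle (-1.23, adjusted p = 0.082) or of NRF2 KO CM/vehicle (-1.19, adjusted p = 0.069). The second was lost without replicate 1 (-1.36, adjusted p = 0.078) or 3 (-1.02, adjusted p = 0.16) of KEAP1 KO CM/vehicle or replicate 3 of NRF2 KO CM/vehicle (-0.97, adjusted p = 0.17). Replicate 3 of NRF2 KO CM/vehicle, 1 of the 2 libraries with fewest genes, also decided the calls of Pla2g15 (0.67, adjusted p = 0.15 without it), Pla2g2e for WT CM (0.91, adjusted p = 0.095) and Pla2g12a for KEAP1 KO CM (0.43, adjusted p = 0.098). Calls of Pla2g15, Pla2g2e, Ptger4 and Slco2a1 for WT CM were lost without single WT CM/vehicle libraries too. With only the groups compared in the fit, Ptgir, Ltb4r1 and Ptger2 were still called for WT CM and Ptgir and Pla2g5 for KEAP1 KO CM. The other calls against NRF2 KO CM were then lost (adjusted p = 0.062 to 0.35).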
